A study of Anser cygnoides with 4 samples.

Results

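PAX7+ MYOD1- cells that were not cycling made up 2102 of the 49503 cell barcodes kept from 4 droplet libraries of goose leg muscle. That is 4.25% of all kept barcodes and 10.3% of the 20489 barcodes with at least 2 UMIs of PAX7. A UMI, or unique molecular identifier, marks 1 captured RNA molecule. The libraries came from leg muscle of female Zhedong White goose embryos (Anser cygnoides), 1 library each at embryonic day 13 (E13), 15 (E15), 18 (E18) and 23 (E23). None of the embryos carried a genetic change or received a treatment. Each library pooled the cells of several embryos, 3 by the sample labels and 4 by the methods of the study, so embryos of a stage cannot be told apart. The muscle was digested, fibroblasts were reduced by differential plating, and the cells were frozen and thawed before loading, so shares of cell types are shares after that enrichment.

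The cells were chosen by measured values. A barcode had to hold 300 to 6500 genes and 1000 to 50000 UMIs, at least 2 UMIs of PAX7, none of MYOD1, MYOG or PTPRC, and at most 1 of the 6 cell division genes MKI67, TOP2A, CDK1, CCNB2, PLK1 and TPX2. The rule found 258 cells in the E13 library, 312 in E15, 673 in E18 and 859 in E23. The other barcodes with 2 or more UMIs of PAX7 were 5040 with at least 2 UMIs of MYOD1 and not cycling, 996 with exactly 1 UMI of MYOD1 and not cycling, 1214 cycling without MYOD1, 3781 cycling with MYOD1, and 7356 with MYOG or PTPRC. These groups are called PAX7+ MYOD1+ cells (at least 2 UMIs of MYOD1, not cycling) and cycling PAX7+ cells (no MYOD1, at least 2 division genes) in the following. Because reads of these genes divided the cells, a gene whose RNA goes with MYOD1 or with the division genes was set apart by the choice itself. Against all other cells this also holds for genes whose RNA goes with PAX7, MYOG or PTPRC. The 10 rule genes were left out of all tests.

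PAX7 is the paired box transcription factor that marks satellite cells, the muscle stem cells that lie between the myofibre and its basement membrane, and their embryonic precursors. MYF5 and MYOD1 commit these cells to the muscle lineage, and MYOG starts their differentiation and fusion. In the mouse, the calcitonin receptor CALCR and Notch targets such as HEYL, HEY1 and HES1 are known from PAX7 cells that stay undifferentiated, and CALCR is known from quiescent satellite cells of adult muscle. An embryonic PAX7 cell need not be quiescent, since most of these cells still divide while muscle grows.

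All 4 libraries were deep, with 128674910 to 155367545 UMIs each. The highest mitochondrial share of a kept barcode was 5.85%, and any pair of libraries shared 25 to 54 barcodes. The E13 library stood apart in the oxidative stress gene HMOX1, which was at 2169 CPM (UMIs of a gene scaled to a common total) in PAX7+ MYOD1- cells of E13 against 84.4 to 99.1 CPM in the other libraries. The same step was present in the PAX7+ MYOD1+ cells of E13 (2147 CPM) and in all other cells of E13 (2260 CPM). Values at E13 are therefore read against other cells of E13, and the part of this stress signal in differences between stages was not tested.

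PAX7, which the rule used, is given as a description. Its summed level in PAX7+ MYOD1- cells was 420, 838, 562 and 545 CPM from E13 to E23. In PAX7+ MYOD1+ cells it was 436, 813, 685 and 681 CPM, and in cycling PAX7+ cells 307, 558, 434 and 437 CPM. The median cell held 3 UMIs of PAX7 at E13, 5 at E15 and 4 at both later stages. Cells at exactly 2 UMIs, just inside the rule, numbered 110, 57, 172 and 191 in the 4 libraries. Among those, CALCR stood at 26.4, 91.2, 9.66 and 9.22 CPM, and among cells with 1 UMI of PAX7, just outside, at 29.0, 59.6, 14.0 and 10.8 CPM. After each barcode was thinned to 4000 UMIs, 82.8% to 89.1% of the PAX7+ MYOD1- cells still held a UMI of PAX7, against 7.81% to 25% of immune cells, which should lack it. Immune cells here are all kept barcodes with at least 2 UMIs of PTPRC, the pan-leukocyte gene, whatever their PAX7 (465 barcodes, 24 to 209 a library after thinning). Median depth was 7811.5 to 10936 UMIs in PAX7+ MYOD1- cells and 5585 to 8205.5 UMIs in the immune cells before thinning.

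Against PAX7+ MYOD1+ cells, the other marker, CALCR, was lower in the PAX7+ MYOD1- cells. It stood at 27.7 CPM at E13 (exact 95% Poisson interval 21.1 to 35.7), 93.0 at E15 (81.3 to 106), 12.6 at E18 (10.0 to 15.7) and 16.4 at E23 (13.9 to 19.2). Intervals given here and below cover counting error only. PAX7+ MYOD1+ cells held 51.5, 128, 44.9 and 35.7 CPM of CALCR, higher in all 4 libraries. PAX7 cells with exactly 1 UMI of MYOD1, just outside the rule, held 31.4, 107, 16.6 and 26.1 CPM, between both groups in every library. All other cells together held 53.3, 133, 43.3 and 28.9 CPM. Thinned to 4000 UMIs, 11.7%, 18.2%, 4.0% and 5.0% of the PAX7+ MYOD1- cells held a UMI of CALCR, against 14.4%, 25.9%, 11.6% and 9.2% of the PAX7+ MYOD1+ cells and 3.1%, 12.5%, 3.5% and 1.4% of the immune cells. Stromal cells, with at least 3 of 7 stromal genes at 2 or more UMIs, held it in 3.5%, 4.8%, 1.8% and 2.3% of cases. The interval of the PAX7+ MYOD1- cells overlapped that of the immune cells in all 4 libraries. At E13 it was 8.01 to 16.4 against 0.38 to 10.8, and at E15 13.6 to 23.6 against 2.66 to 32.4. At E18 it was 2.58 to 5.78 against 0.96 to 8.67 (115 immune cells), and at E23 3.59 to 6.73 against 0.30 to 4.14. It lay above that of the stromal cells in every library, at E18 1.34 to 2.41 (2581 stromal cells). CHODL, another gene known from quiescent mouse satellite cells, gave 1 UMI in all PAX7+ MYOD1- cells together. The label thus rests on PAX7, and the cells are called by their rule.

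The share of PAX7+ MYOD1- cells among kept barcodes was 1.63% at E13 (exact Clopper-Pearson 95% interval 1.43 to 1.83), 2.73% at E15 (2.43 to 3.04), 5.99% at E18 (5.56 to 6.44) and 7.85% at E23 (7.35 to 8.37). Each later library was above the one before, and none of these intervals overlap. The step from E13 to E15 depended on the cut at 2 UMIs of PAX7. With PAX7 at 1 or more UMIs, E13 (3.18%, 2.91 to 3.46) and E15 (3.21%, 2.90 to 3.55) were level. As a share of the barcodes with PAX7, the same cells were 6.06% (5.36 to 6.82), 5.23% (4.68 to 5.83), 14.0% (13.1 to 15.0) and 15.7% (14.7 to 16.7). On this base the step lay between E15 and E18, and the intervals of E13 and E15 overlapped. After thinning, 21.9%, 33.3%, 12.2% and 14.4% of the immune cells held a UMI of MYOD1 from E13 to E23. Of the stromal cells, 19.0%, 21.7%, 10.3% and 11.9% did so. These cells should lack MYOD1, so such UMIs can also keep a PAX7 cell out of the rule. The part of this in the step was not tested. There was 1 library at each stage, so no test between stages was possible, and a difference between stages cannot be told apart from a difference between libraries.

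**Figure D1:**
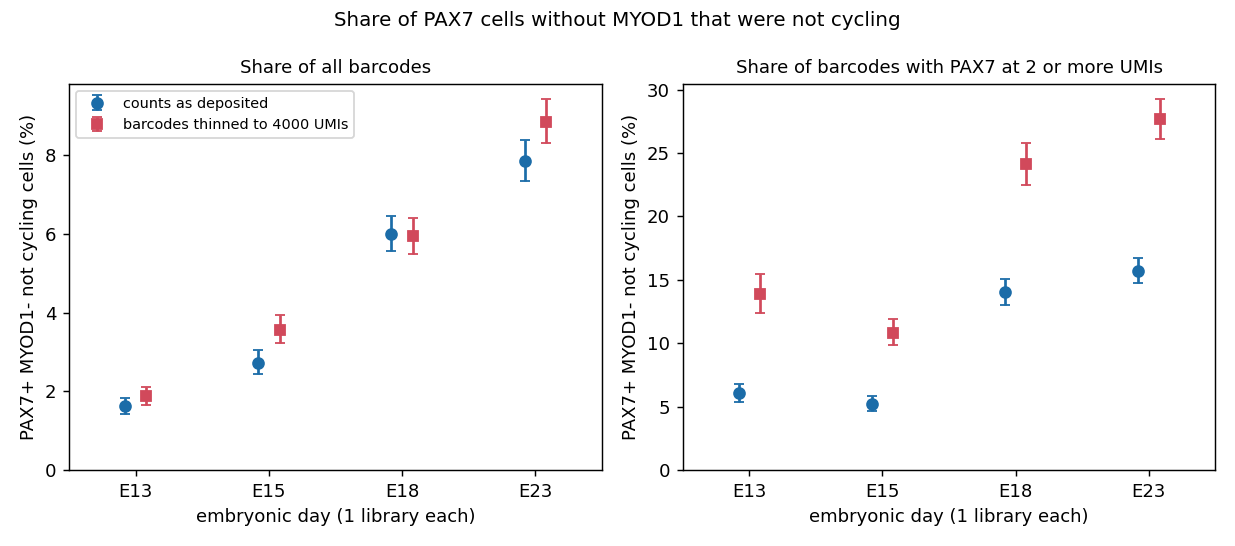
Share of PAX7+ MYOD1- not cycling cells at each embryonic day (1 library each), as a percent of all kept barcodes (left) and of barcodes with at least 2 UMIs of PAX7 (right). Circles are counts as deposited and squares the rule applied after thinning to 4000 UMIs, with exact 95% binomial intervals: on the left the share climbs from 1.63% to 7.85%, and on the right E18 and E23 stand above E13 and E15 under both.

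A shallow barcode can miss MYOD1 by chance, so the share was also read by depth. Among not cycling PAX7 cells without MYOG or PTPRC, those under 4000 UMIs lacked MYOD1 in 21.2%, 40.1%, 51.2% and 64.0% of cases from E13 to E23. From 4000 to 8000 UMIs it was 13.3%, 15.9%, 33.5% and 27.3%, and from 8000 to 12000 UMIs 11.6%, 14.4%, 40.2% and 36.2%. From 12000 to 16000 UMIs it was 7.87%, 16.6%, 41.3% and 39.1%, and above that 6.03%, 5.88% (4 of 68 cells), 36.2% and 32.5%. In every library the shallowest cells had the highest share. Above 4000 UMIs the share fell with depth at E13, lay between 14.4% and 16.6% at E15 up to 16000 UMIs, and moved between 33.5% and 41.3% at E18 and between 27.3% and 39.1% at E23 without a steady fall. Members under 4000 UMIs were few, 11, 65, 41 and 57 cells. When every barcode was first thinned to 4000 UMIs, the share of barcodes was 1.88%, 3.57%, 5.94% and 8.84%, and the share of PAX7 barcodes 13.9%, 10.8%, 24.1% and 27.7%. The order of E13 and E15 against E18 and E23 was the same with thinning, and the levels on the PAX7 base moved by over 1.5 times. On that base the thinned intervals of E13 (12.4 to 15.5) and E15 (9.83 to 11.9) no longer overlapped, with E13 higher.

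The rule kept cells with at most 1 division gene, most of which act in mitosis, so S phase was examined with 21 genes that the rule did not use. After thinning, 26.3%, 28.3%, 22.8% and 47.5% of PAX7+ MYOD1- cells held 5 or more of the 21 genes. PAX7+ MYOD1+ cells did so in 26.4%, 33.3%, 24.3% and 33.6% of cases. Cycling PAX7+ cells were far above both at 78.5%, 89.0%, 79.4% and 93.4%, and the immune cells were at 28.1%, 33.3%, 44.3% and 20.1%. At E23 the interval of the PAX7+ MYOD1- cells (44.0 to 51.0) lay above that of the PAX7+ MYOD1+ cells (30.9 to 36.3), while at the other 3 stages the intervals overlapped. The summed level of the S phase list at E23 was 1838 CPM in PAX7+ MYOD1- cells and 1469 CPM in PAX7+ MYOD1+ cells, whereas in the other libraries it was lower in the PAX7+ MYOD1- cells (1121 to 1462 against 1238 to 1552 CPM). The words not cycling therefore describe the division genes, and the E23 cells included many with S phase RNA.

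**Figure D2:**
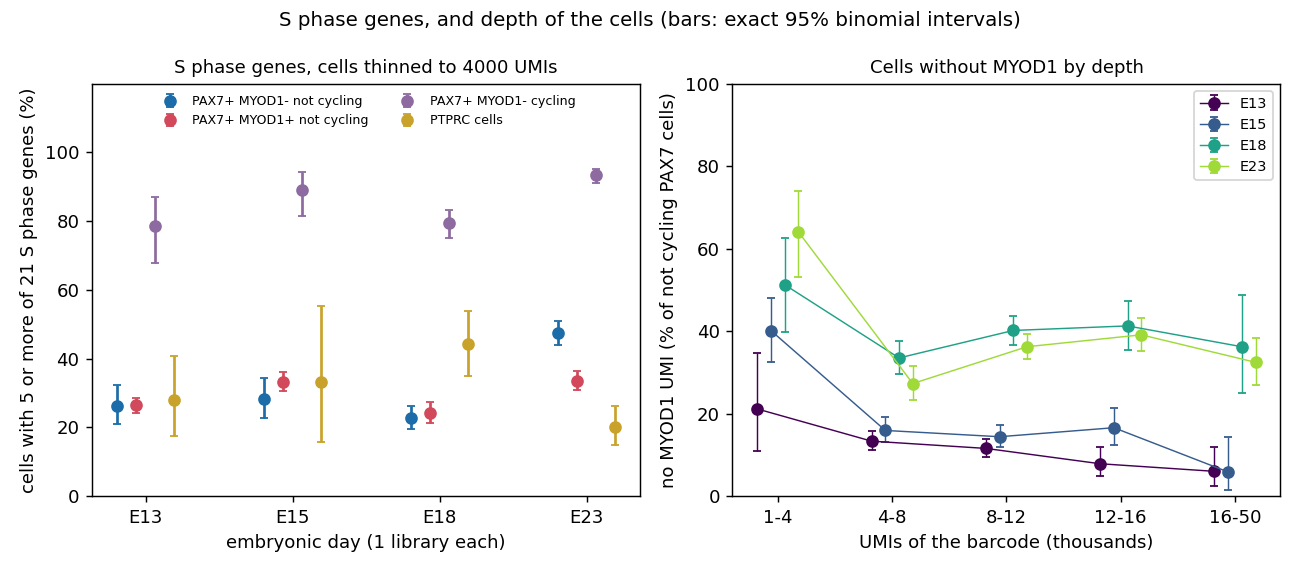
Left, percent of cells with 5 or more of 21 S phase genes after thinning to 4000 UMIs, for 4 groups of cells at each embryonic day, of which the PTPRC cells are the immune cells with at least 2 UMIs of PTPRC. Right, percent of not cycling PAX7 cells without a UMI of MYOD1 by the UMIs of the barcode for each library. Bars are exact 95% binomial intervals: the PAX7+ MYOD1- cells reach 47.5% at E23, and above 8000 UMIs the curves of E18 and E23 lie between 32.5% and 41.3% and those of E13 and E15 between 5.88% and 16.6%.

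To ask what else differed between PAX7 cells without and with MYOD1, UMIs were summed over the cells of each group in each library, and the 4 pairs of sums were compared gene by gene with edgeR's quasi-likelihood test, with the library as a block. PAX7+ MYOD1- cells had less RNA of the contractile apparatus, of several satellite cell receptors and of myogenic regulators, and more RNA of the retinoid enzyme RDH10, the ligand FGF10, interstitial collagens and the Notch targets HEYL and NRARP. Since MYOD1 divided the cells, genes whose RNA goes with MYOD1, among them contractile genes and myogenic regulators, were set apart by the choice. They can include the satellite cell and basement membrane genes below, such as CALCR, MEGF10, ITGA7, COL15A1 and LAMA2. The values of those genes are therefore a description too. Of 13119 genes tested, 230 were higher (1.75%) and 349 lower (2.66%) at an adjusted p under 0.05 (Benjamini-Hochberg over all genes tested, used throughout), and 42 and 120 of them differed by over 2-fold. The median log2 fold change of all genes was 0.01. Without the E18 library the counts were 89 and 173, and without the E23 library the lower genes numbered 183. The adjusted p weighs the mean difference over 4 libraries, each from 1 pool of embryos, against edgeR's estimate of the variation between libraries. It does not require the same direction in each library, and it does not measure variation between embryos.

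Of the 23 tested genes of satellite cell identity and quiescence, 2 were higher and 7 lower, with a median log2 fold change of -0.27. MEGF10, a cell surface receptor that in the mouse regulates satellite cell proliferation, was at 35.1, 129, 37.3 and 65.5 CPM in PAX7+ MYOD1- cells from E13 to E23, against 207, 266, 134 and 212 CPM in PAX7+ MYOD1+ cells. The groups did not overlap, and MEGF10 fell by 1.70 ± 0.16 on the log2 scale (SE from edgeR's fit, n = 4 pairs, edgeR adjusted p = 0.00064). The SE here and below is the log2 fold change divided by the square root of edgeR's F statistic. It is not the spread of the 4 library ratios. CALCR was lower by a log2 fold change of -1.02 ± 0.17 (edgeR adjusted p = 0.0072), with the levels given above. FGFR4, the main FGF receptor of myogenic cells, stood at 69.3, 238, 117 and 88.9 CPM against 128, 330, 223 and 168 CPM, a log2 fold change of -0.79 ± 0.08 (edgeR adjusted p = 0.00068). The transcription factor SOX8, which is expressed by mouse satellite cells, was at 80.8, 104, 57.2 and 76.2 CPM against 161, 160, 103 and 134 CPM, and its fold change was similar at -0.81 ± 0.07. In each of these 4 genes every library was lower in PAX7+ MYOD1- cells, and the call held without each library in turn. CDH15, the muscle cadherin, and ITGA7, the laminin receptor chain of muscle, were also lower at -0.88 and -0.70, but these calls were lost without 1 of the libraries or after thinning.

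The 2 higher genes of this list were HEYL and EGFR. HEYL, a repressor that Notch switches on, was at 4.62, 20.5, 13.1 and 12.2 CPM against 2.69, 9.65, 7.41 and 6.83 CPM, a log2 fold change of 0.90 ± 0.14 (edgeR adjusted p = 0.0059). The level was low, and every library was higher in PAX7+ MYOD1- cells. EGFR, the receptor for epidermal growth factor, was at 11.5, 33.6, 271 and 241 CPM against 9.31, 16.8, 112 and 175 CPM (log2 fold change 0.84 ± 0.14), and without the E18 library its adjusted p was 0.051. PAX3, the paralogue of PAX7, did not pass the test (log2 fold change -0.38 ± 0.13, edgeR adjusted p = 0.15), and SPRY1, a feedback inhibitor of FGF signalling known from quiescent mouse satellite cells, did not pass it either (-0.27 ± 0.10, adjusted p = 0.17).

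**Figure D3:**
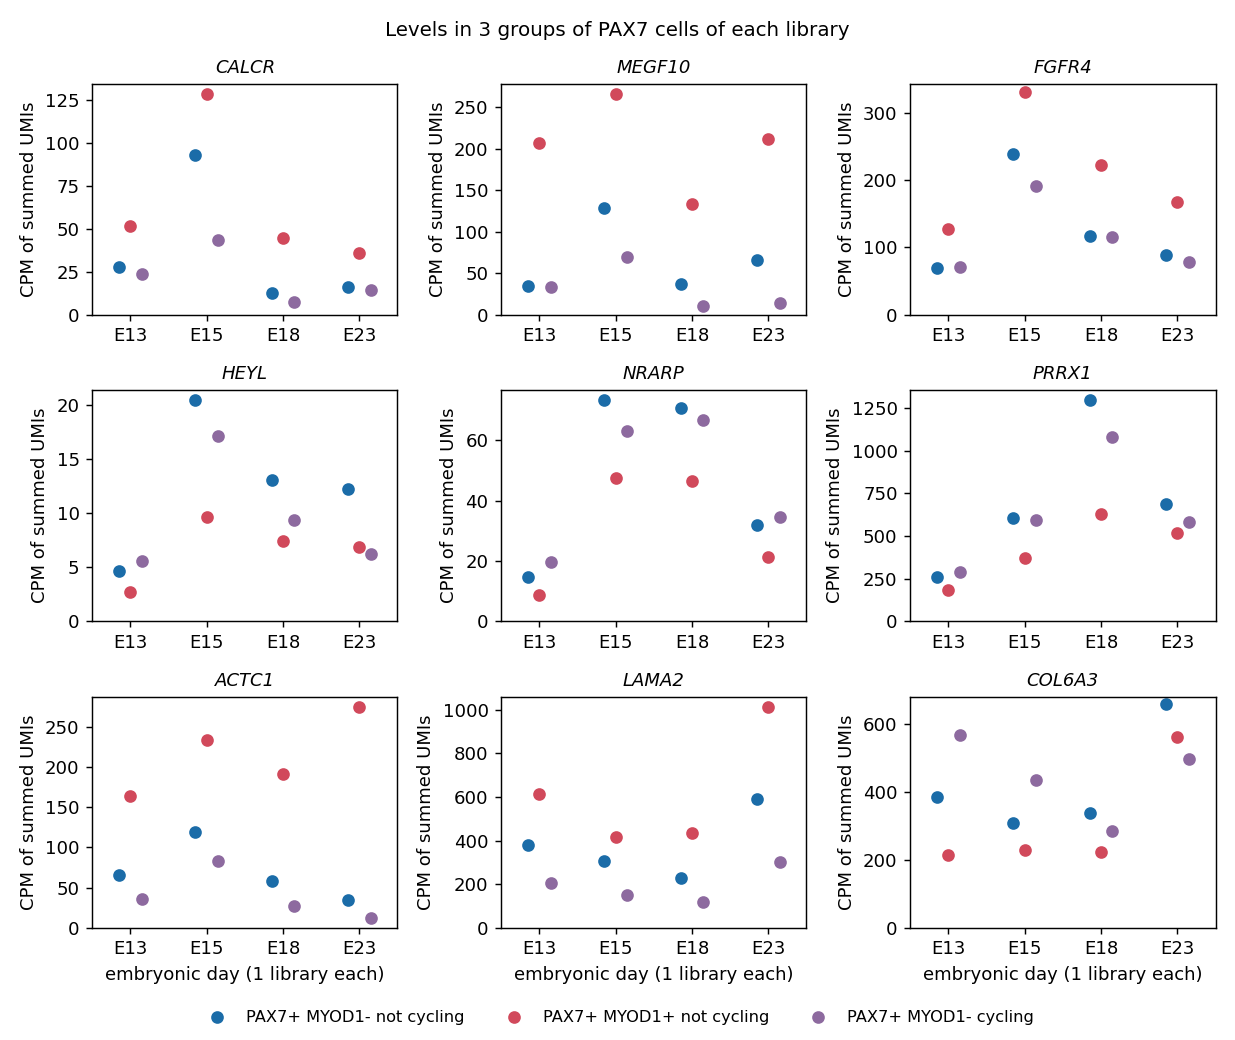
Summed level (CPM) of 9 genes in 3 groups of PAX7 cells in each library, 1 point for each group and embryonic day. CALCR, MEGF10, FGFR4, ACTC1 and LAMA2 lie lower in PAX7+ MYOD1- than in PAX7+ MYOD1+ cells at all 4 stages, and HEYL, NRARP, PRRX1 and COL6A3 lie higher.

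Of 14 tested Notch pathway genes, 2 were higher and none lower, with a median of 0.06. Besides HEYL these held NRARP, a feedback inhibitor that Notch induces, which was at 14.8, 73.4, 70.6 and 31.9 CPM against 8.87, 47.3, 46.4 and 21.3 CPM (log2 fold change 0.62 ± 0.08, edgeR adjusted p = 0.0022). NRARP and HEYL kept their calls without each library. HEY1, the most abundant Notch target here, was at 328, 591, 347 and 128 CPM against 319, 441, 286 and 133 CPM and did not pass (0.18 ± 0.07, adjusted p = 0.26). Nor did HES1 (0.06 ± 0.15, adjusted p = 0.92) or the receptor NOTCH1 (-0.26 ± 0.11, adjusted p = 0.30), both of which changed sign between libraries. Of the 16 cell cycle inhibitors and D cyclins, CDKN1C, an inhibitor of G1 kinases, and CCND3, a D cyclin, were higher at 0.66 ± 0.13 and 0.58 ± 0.11, and the other 14 did not pass. CDKN1C was at 30.5, 21.7, 73.5 and 28.4 CPM against 18.7, 17.1, 35.9 and 21.5 CPM, and it was not called without the E18 library (adjusted p = 0.12).

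Among 16 myogenic regulators, 6 were lower and none higher, with a median of -0.41. The choice by MYOD1 set genes that go with it apart, so these values are a description. RBM24, a splicing factor of muscle genes, was at 13.9, 27.5, 15.0 and 12.8 CPM against 56.6, 54.0, 55.3 and 71.4 CPM, a log2 fold change of -1.89 ± 0.19. TCF12, an E protein partner of MYOD1, was lower at -0.45 ± 0.05, ID2, an inhibitor of such partners, at -0.28 ± 0.05, MYF6 at -0.46 ± 0.10 and MYMK, the fusion protein myomaker, at -1.24 ± 0.26. RBM24 and TCF12 held without each library, and MYF6, ID2 and MYMK did not. MYF5 itself was at 205, 177, 114 and 216 CPM against 216, 193, 169 and 301 CPM, lower in all 4 libraries, and just missed the threshold (-0.32 ± 0.08, edgeR adjusted p = 0.054). Over the alternatives with the library as a block the adjusted p of MYF5 ranged from 4.65e-05, with no filter on low counts, to 0.27, without E18. After thinning, 46.6%, 43.7%, 32.3% and 42.3% of PAX7+ MYOD1- cells held a UMI of MYF5, against 7.8%, 20.8%, 2.6% and 9.1% of the immune cells.

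Of 20 tested genes of the contractile apparatus 11 were lower and 1 higher, with a median of -1.64. Here too the choice by MYOD1 set such genes apart, and their levels are given as a description. ACTC1, the cardiac actin of embryonic skeletal muscle, was at 66.0, 119, 58.4 and 34.9 CPM against 163, 234, 191 and 274 CPM (log2 fold change -1.78 ± 0.25, edgeR adjusted p = 0.0036). TNNT3, fast troponin T, was at 8.77, 7.79, 8.74 and 22.0 CPM against 18.7, 16.8, 68.0 and 129 CPM (-2.36 ± 0.23). NEB, the thin filament ruler nebulin, was at 5.08, 5.33, 5.62 and 13.6 CPM against 12.7, 13.7, 31.1 and 72.1 CPM (-2.19 ± 0.18). For both genes the gap was under 3-fold at E13 and E15 and over 5-fold at E18 and E23. MYPN, TNNC2 and MYL1 also held without each library, at -2.07, -1.82 and -1.61. TPM2, a tropomyosin that is not confined to muscle, was the 1 higher gene (0.28 ± 0.06).

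**Figure D4:**
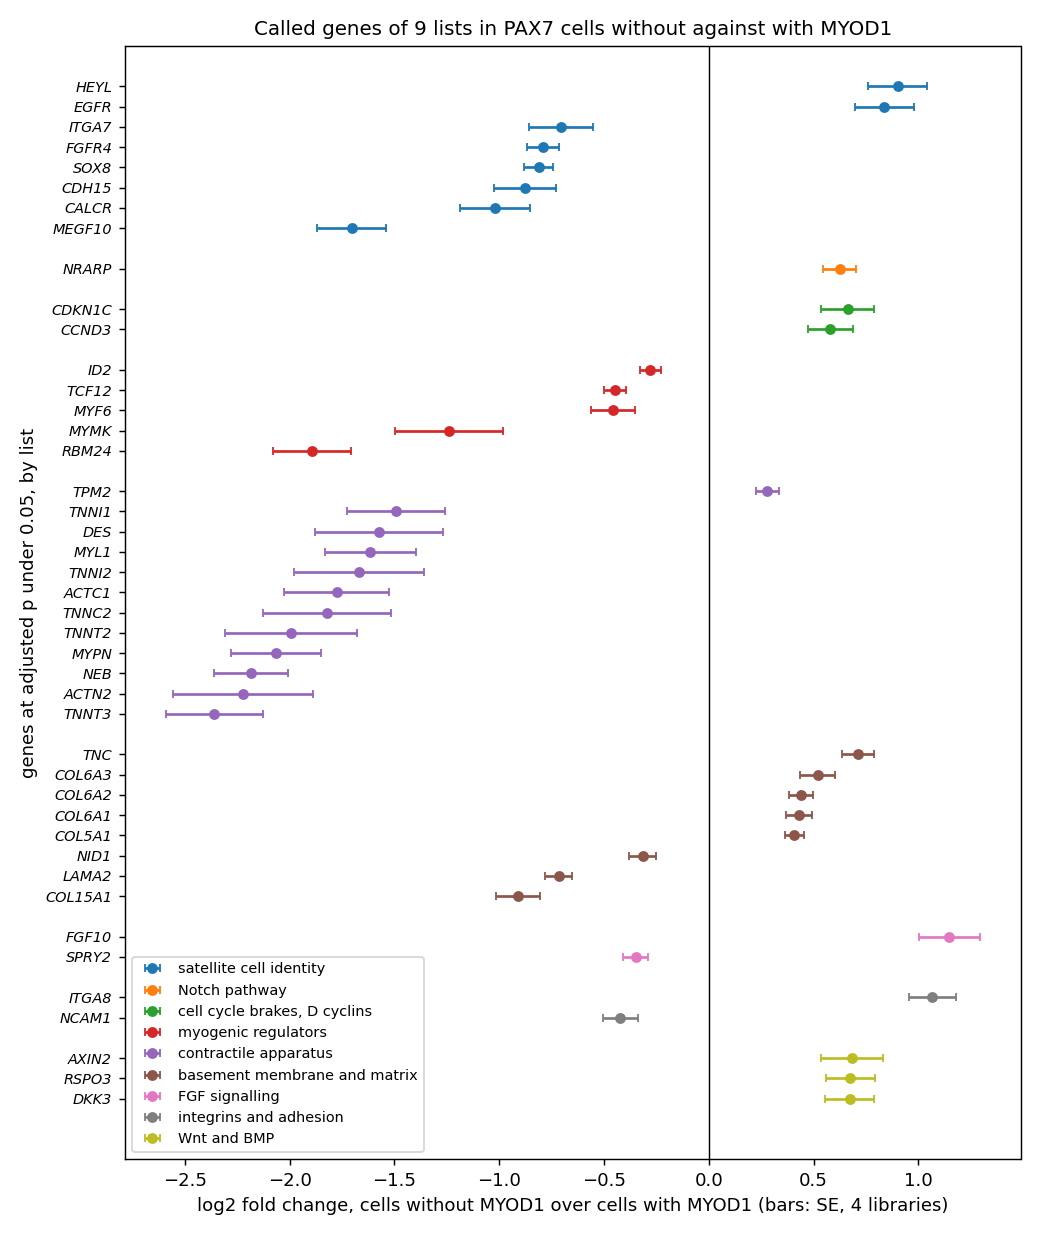
Log2 fold change of PAX7+ MYOD1- over PAX7+ MYOD1+ cells for the reported genes of 9 lists with an edgeR adjusted p under 0.05, coloured by list. Bars are the SE from edgeR's fit to 4 libraries, not the spread of the library ratios. Contractile genes spread from -1.49 to -2.36 with TPM2 alone above 0, and the genes above 0 include HEYL, NRARP, FGF10, ITGA8, TNC and the collagen VI chains.

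Matrix genes went both ways, with 5 of 24 higher, 3 lower and a median of 0.02. COL6A1, COL6A2 and COL6A3, the chains of collagen VI, were higher at 0.43 ± 0.06, 0.44 ± 0.06 and 0.52 ± 0.08. COL6A3 was at 384, 307, 338 and 657 CPM against 215, 228, 222 and 560 CPM, with an adjusted p of 0.051 without the E18 library. COL5A1, of fibrillar collagen V, was higher at 0.41 ± 0.05, and TNC, the matrix glycoprotein tenascin C, stood at 246, 103, 58.1 and 1013 CPM against 130, 72.9, 32.2 and 674 CPM (0.71 ± 0.08). The 3 lower genes belong to the basement membrane. LAMA2, the laminin chain of the muscle basement membrane, was at 379, 305, 227 and 590 CPM against 612, 418, 433 and 1015 CPM (-0.72 ± 0.07, edgeR adjusted p = 0.00051). COL15A1, which joins the basement membrane to the interstitium, was lower at -0.91 ± 0.11 and NID1, which links laminin to collagen IV, at -0.32 ± 0.06, the latter not in every alternative.

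FGF10, a ligand usually known from limb mesenchyme, was at 12.9, 13.5, 45.0 and 158 CPM against 5.00, 8.59, 26.3 and 56.4 CPM, a log2 fold change of 1.15 ± 0.15 (edgeR adjusted p = 0.0021). The FGF list held 1 higher gene, FGF10, and 2 lower ones, FGFR4 and the FGF feedback inhibitor SPRY2 (-0.35 ± 0.06), among 15 tested. In the Wnt and BMP list 3 of 22 were higher and none lower, namely RSPO3, which amplifies Wnt signals (0.68 ± 0.12), the secreted DKK3 (0.67 ± 0.11) and AXIN2, a Wnt target and inhibitor (0.68 ± 0.15). Each of these 3 calls was lost under at least 1 alternative. ITGA8, an integrin chain that binds matrix of mesenchyme, was at 17.1, 31.6, 41.4 and 27.1 CPM against 8.56, 15.5, 16.4 and 14.8 CPM (1.07 ± 0.11), and it was the 1 higher gene of 20 in the adhesion list, beside NCAM1 (-0.42 ± 0.08) and CDH15 on the lower side.

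Outside the lists, MMP7, the secreted protease matrilysin, had the largest positive fold change, at 2.00 ± 0.45, with 30.5, 9.43, 122 and 49.9 CPM against 0.375, 0.654, 36.1 and 24.2 CPM. Its adjusted p of 0.036 rose to 0.14 without the E18 library, and the call was also lost without E15. RDH10, the dehydrogenase that makes retinaldehyde from retinol on the way to retinoic acid, was more even, at 134, 48.8, 101 and 183 CPM against 43.5, 16.8, 34.3 and 87.4 CPM (1.42 ± 0.10, edgeR adjusted p = 0.00030). It was over 2-fold higher in each library and held under every alternative with a block. The long noncoding RNA LOC125183290 (1.98 ± 0.21), PDZRN4 (1.40 ± 0.11), the peptide gene NPY (1.25 ± 0.17), the matrix protease ADAMTS9 (1.24 ± 0.20) and EVA1A (1.11 ± 0.13) followed. CSF3, the granulocyte growth factor, and PRLH, a peptide hormone gene, were higher at 1.52 ± 0.30 and 1.24 ± 0.28 and lost their calls without some libraries. On the lower side the 10 largest were LOC106029845 (-2.47 ± 0.31), TNNT3, WIPF3, an actin regulator (-2.19 ± 0.14), NEB, MYPN, TNNT2, the small heat shock protein CRYAB (-1.90 ± 0.29), RBM24, LOC136787070 (-1.85 ± 0.37) and TNNC2, of which TNNT3, NEB, MYPN, TNNT2 and TNNC2 are contractile genes.

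Markers of other cells were read beside these values, since fibro-adipogenic cells make much of the same matrix. The 14 fibro-adipogenic markers summed to 1805 to 3061 CPM in PAX7+ MYOD1- cells and 1472 to 2238 CPM in PAX7+ MYOD1+ cells, higher in each library, and 2 of the 12 tested, PRRX1 (0.67 ± 0.09) and COL1A1 (0.33 ± 0.06), were higher. The defining marker PDGFRA was near 0 at 2.34 to 4.51 CPM, and TCF21 had no count in any PAX7+ MYOD1- cell. Other markers of the list were common. After thinning, 42.5%, 49.0%, 44.6% and 30.2% of PAX7+ MYOD1- cells held DCN, against 15.6%, 8.3%, 11.3% and 10.0% of immune cells. PAX7+ MYOD1+ cells held DCN in 43.9%, 49.5%, 31.6% and 19.2% of cases, and cycling PAX7+ cells in 43.0%, 37.6%, 52.6% and 49.3%. At E13 and E15 the PAX7+ MYOD1- cells were thus not above the PAX7+ MYOD1+ cells. COL3A1 was held by 25.1%, 38.1%, 37.8% and 10.7% of PAX7+ MYOD1- cells, against 18.8%, 32.9%, 25.2% and 11.8% of PAX7+ MYOD1+ cells. In all other cells the markers summed to 2720, 1887, 2945 and 3607 CPM, lower than in PAX7+ MYOD1- cells at E15 (2461) and E18 (3061) and higher at E13 and E23. By markers, 150 of the 2102 cells counted as stromal, with at least 3 of 7 stromal genes at 2 or more UMIs. Left out of both groups together with their counterparts, an alternative chosen after seeing the data, they left 273 higher and 344 lower genes, of which 216 and 323 were also called with them, and the marker sum was still higher at 1516 to 2785 against 1202 to 2023 CPM. The 9 immune markers summed to 8.20 to 23.5 CPM against 9.48 to 21.9, the 11 endothelial markers to 23.0 to 147 against 13.2 to 92.8, the 9 Schwann markers to 35.1 to 128 against 44.9 to 109, and the 9 mural markers to 567 to 832 against 338 to 825 CPM. Of 8 mural genes tested 1 was lower, DES, which is also a contractile gene (-1.57 ± 0.31), and 1 higher. The latter, PDGFRB, a receptor of pericytes and other mesenchyme, was at 0.97 ± 0.13 (32.8, 33.2, 119 and 140 CPM against 16.4, 26.4, 49.4 and 69.6 CPM). Of 7 endothelial genes tested, with a median of 0.78, VWF was called higher, although it had no count in PAX7+ MYOD1- cells of E13 and E15. Both erythroid markers were at 0 in PAX7+ MYOD1- cells and summed to at most 0.45 CPM in PAX7+ MYOD1+ cells. The part of these marker sums in the differences of matrix genes was not tested beyond this.

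Lists of general cell state were read last. Both groups were chosen to hold at most 1 division gene, so nothing is read from mitosis genes between them. None of 20 tested S phase genes, 23 further mitosis genes or 10 heat shock genes passed edgeR's test over 4 libraries, although the S phase sum was higher at E23 and lower in the other libraries as given above, and at an unadjusted p under 0.05 there were 0, 1 and 2, with 0 in each list by DESeq2. Of 15 stress genes 2 were higher, GDF15, a stress cytokine (0.72 ± 0.11), and DDIT4, an inhibitor of growth signalling (0.45 ± 0.08). Of 21 immediate early genes the phosphatase DUSP1 was higher (0.64 ± 0.10) and the transcription factor EGR1 lower (-0.33 ± 0.07), and of 15 glycolysis genes GPI was lower (-0.32 ± 0.08).

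Next, PAX7+ MYOD1- cells were compared with PAX7 cells that also lacked MYOD1 but expressed at least 2 division genes. Median depth was 12869 to 14974 UMIs in these cycling PAX7+ cells and 7811.5 to 10936 UMIs in the PAX7+ MYOD1- cells. A UMI of MYOD1 was thus more easily missed in the PAX7+ MYOD1- cells. The thinned alternative kept the groups as chosen at full depth. The part of this in the differences was not tested. As the choice fixed, mitosis and S phase genes were lower, and 6 of 12 Notch pathway genes, 9 of 18 contractile genes and 6 of 24 matrix genes were higher with none lower. Of 11920 genes, 1080 were higher (9.06%) and 879 lower (7.37%), and the median of all genes was 0.03. Without the E18 library the counts were 424 and 519. All 24 mitosis genes outside the rule were lower (median -4.34) and 19 of 21 S phase genes (median -1.19), from which nothing is read because the division genes chose the cells.

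Notch pathway genes were higher in 6 of 12 tested with none lower and a median of 0.34. HEY1 was at 328, 591, 347 and 128 CPM against 275, 465, 224 and 91.8 CPM in cycling PAX7+ cells, higher in each library (0.48 ± 0.08, edgeR adjusted p = 0.0019). HES1 (0.42 ± 0.11), the ligand JAG1 (0.42 ± 0.12), NOTCH1 (0.69 ± 0.13), the coactivator MAML2 (0.27 ± 0.07) and NUMB, an inhibitor of Notch (0.43 ± 0.09), were the others. Not every library showed a difference. At E13 NOTCH1 was at 40.6 against 42.1 CPM and MAML2 at 275 against 277 CPM. JAG1 was level at E15 (98.8 against 97.6 CPM). HEY1 kept its call under all alternatives with a block. HEYL and NRARP, the Notch genes called higher against PAX7+ MYOD1+ cells, did not pass against cycling PAX7+ cells. HEYL had a log2 fold change of 0.59 ± 0.20 (edgeR adjusted p = 0.065) and NRARP of 0.04 ± 0.10 (edgeR adjusted p = 0.84). NRARP was at 14.8, 73.4, 70.6 and 31.9 CPM against 19.7, 63.2, 66.6 and 34.4 CPM.

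In the list of inhibitors and D cyclins, 6 of 16 were higher and 5 lower. The division genes chose the cells, so genes tied to division were set apart by the choice. The values of this list are therefore a description. FOXO3, a transcription factor that in the mouse holds satellite cells quiescent, was at 136, 182, 294 and 178 CPM against 94.6, 72.4, 191 and 101 CPM (0.84 ± 0.10, edgeR adjusted p = 0.00029). FOXO1, of the same family, was higher at 0.57 ± 0.10, CDKN1B, the kinase inhibitor p27, at 0.46 ± 0.10, and the antiproliferative genes TOB1, BTG1 and BTG2 at 0.63 ± 0.13, 0.37 ± 0.08 and 0.42 ± 0.12. Lower were CDKN2C, a kinase inhibitor that dividing cells induce (-3.18 ± 0.51), RB1 (-0.49 ± 0.10) and its relative RBL1 (-0.43 ± 0.10), and the cyclins CCND1 (-0.37 ± 0.08) and CCND3 (-0.36 ± 0.10). CDKN2C rests on few molecules, at 0.92, 0.41, 0.47 and 1.06 CPM against 0, 6.14, 11.9 and 6.80 CPM, and was not lower at E13. FOXO1, FOXO3, CDKN1B and RB1 held under every alternative with a block.

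Of 16 myogenic regulators 9 were higher and none lower (median 0.37), and of 18 contractile genes 9 were higher and none lower (median 1.05). MEF2C, a partner of MYOD1 in switching on muscle genes, was at 110, 78.7, 36.5 and 74.2 CPM against 59.9, 52.8, 22.3 and 29.2 CPM (0.97 ± 0.13). ID1, an inhibitor of MYOD1 partners, was higher too (0.47 ± 0.07), as was ID2 (0.53 ± 0.07). ACTC1 was at 66.0, 119, 58.4 and 34.9 CPM against 35.6, 83.5, 27.4 and 12.7 CPM (1.04 ± 0.14). Satellite cell genes were higher in 6 of 23 and lower in 1, with MEGF10 among the higher ones (1.5 ± 0.25), although level at E13 (35.1 against 33.7 CPM). EGFR did not pass here (-0.20 ± 0.21, edgeR adjusted p = 0.58). CALCR was at 27.7, 93.0, 12.6 and 16.4 CPM against 23.4, 43.6, 7.65 and 14.6 CPM (0.60 ± 0.16, edgeR adjusted p = 0.029), a call lost with DESeq2, without E15 or E18, or after thinning. When cycling cells with MYOD1 were added to the comparison group, CALCR, MEGF10 and ACTC1 turned to -0.62, -0.64 and -0.36, so their direction depends on MYOD1 in the cycling cells, whereas HEY1, FOXO1, FOXO3, CDKN1B, MEF2C and ID1 kept theirs.

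Of 24 matrix genes 6 were higher and none lower (median 0.10). LAMA2 was higher at 1.0 ± 0.07 and COL15A1 at 0.84 ± 0.13, both turning with MYOD1 in the cycling group, while COL4A1, a collagen IV chain, was at 409, 709, 237 and 262 CPM against 278, 556, 147 and 141 CPM and held throughout (0.67 ± 0.09, edgeR adjusted p = 0.00064). Among 21 Wnt and BMP genes, the BMP receptor BMPR1B was at 41.1, 188, 134 and 58.2 CPM against 25.3, 98.2, 43.3 and 21 CPM (1.33 ± 0.13), the BMP antagonist GREM1 (0.91 ± 0.19) and the ligand BMP4 (0.70 ± 0.16) were higher, and the Wnt inhibitor SFRP1 was lower at 4.62, 6.97, 5.62 and 7.66 CPM against 15.0, 21.5, 20.7 and 30.8 CPM (-1.84 ± 0.16). FGF10 was lower than in cycling cells (-0.77 ± 0.10), so that it stood between cycling and MYOD1 cells in all 4 libraries. Among the largest positive changes were those of LOC106036393 (2.28 ± 0.22), with 78.5, 544, 2323 and 593 CPM against 34.6, 46.6, 614 and 134 CPM, BMF, which promotes cell death (2.22 ± 0.20), FGF14 (1.73 ± 0.20), LRP1B (1.61 ± 0.27) and LOC106045020 (1.59 ± 0.17). LRP1B was level at E23 (1.49 against 1.44 CPM). On the lower side the 10 largest were mitosis genes, from NUSAP1 (-6.29) to CDCA8 (-4.96), as the choice fixed. The 14 fibro-adipogenic markers summed to 2227 to 2761 CPM in cycling PAX7+ cells, against 1805 to 3061 CPM.

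Against all other cells of the same library, which include myocytes, cycling cells and stromal cells, 610 of 16914 genes were higher (3.61%) and 1195 lower (7.07%), with a median of -0.03. Without E15 the counts were 311 and 789, and without E18 275 and 743. All 24 mitosis genes and 16 of 20 contractile genes were lower, as were 5 of 8 tested immune and 4 of 9 mural markers. Only the PAX7+ MYOD1- cells had to hold PAX7 and to lack MYOD1, MYOG, PTPRC and all but 1 division gene. The choice thus set mitosis, contractile and immune genes apart, and nothing is read from them. It also set apart genes whose RNA goes with PAX7 or with MYOD1. These can include the fibro-adipogenic, Notch and satellite cell genes that follow, whose values are given as a description. Of 14 fibro-adipogenic markers 5 were lower, among them DCN (-0.97 ± 0.19), and 2 were higher, PRRX1 (0.80 ± 0.18) and TWIST1 (0.56 ± 0.15). Notch genes were higher in 5 of 16, led by HEY1 at 328, 591, 347 and 128 CPM against 144, 192, 113 and 72.8 CPM (1.30 ± 0.13, edgeR adjusted p = 0.00046), and lower in 2, the ligands JAG2 (-1.79 ± 0.39) and DLL1, which had no count in PAX7+ MYOD1- cells. Of 16 myogenic regulators 2 were higher, ID1 and ID3, and 7 lower. Of 25 satellite cell genes 4 were higher and 2 lower, with a median of -0.21. The lower ones were CALCR (-1.0 ± 0.18) and MEGF10 (-1.51 ± 0.14), and the higher ones HEYL (0.94 ± 0.22), PDLIM4 (0.83 ± 0.10), GAS1 (0.47 ± 0.09) and PAX3. PAX3 was higher at 0.74 ± 0.19 although not at E23, where it was at 16 against 16.5 CPM.

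The genes with the largest positive change in this comparison were NSG2, at 20.3, 222, 443 and 15.8 CPM against 6.37, 57.3, 102 and 6.48 CPM (1.78 ± 0.13), FGF14 (1.73 ± 0.19), the Wnt antagonist DKK1 (1.71 ± 0.24) and COL8A2 (1.70 ± 0.20). DKK1 was at 19.4, 192, 297 and 31.9 CPM against 11.3, 32.1, 75 and 14.1 CPM. The calcium channel gene CACNA1G (1.70 ± 0.34), the neuropeptide precursor PNOC (1.66 ± 0.22), EPB41L3 (1.64 ± 0.19), the glutamate receptor gene GRIA2 (1.60 ± 0.23), C1QTNF12 (1.56 ± 0.33) and the homeobox gene DLX3 (1.51 ± 0.21) completed the 10. Several were highest at E15 and E18, and CACNA1G and C1QTNF12 lost their calls without either of those libraries. The largest negative change was that of the long noncoding RNA LOC125184268, at 0, 1.23, 0.312 and 0.319 CPM against 29.1, 155, 69.2 and 26.9 CPM (-7.16 ± 0.23), followed by muscle genes such as KLHL31, MYH15 and CAV3 and mitosis genes such as NUSAP1. The choice set muscle and mitosis genes apart here as well, and the higher genes can include some set apart by PAX7.

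The cells also differed among themselves. After thinning to 4000 UMIs, 29, 45, 25 and 40 cells held CALCR and 218, 202, 607 and 762 did not, and both parts were summed and compared within libraries. Of 7848 genes, 18 were higher (0.229%) and 37 lower (0.471%) in cells with CALCR. MEGF10 was higher with CALCR, at 69.0, 133, 70.0 and 281 CPM against 29.8, 108, 43.2 and 64.6 CPM (1.21 ± 0.27, edgeR adjusted p = 0.030), as were LAMA2 (0.88 ± 0.11), COL15A1 (0.68 ± 0.14) and BMPR1B (1.0 ± 0.23). Lower with CALCR were LGALS1, the lectin galectin 1, at 1293, 506, 4050 and 2481 CPM against 2406, 1374, 6465 and 3815 CPM (-0.89 ± 0.09), fibronectin FN1 (-0.78 ± 0.12), COL5A1 (-0.63 ± 0.10), EGFR (-1.49 ± 0.26) and PDGFRB (-1.90 ± 0.41), the last at 0, 5.56, 90.0 and 12.5 CPM against 32.1, 39.6, 118 and 136 CPM. LGALS1, FN1, COL5A1 and LAMA2 held under every alternative with a block. The sums of cells with CALCR held only 100000 to 180000 UMIs, so levels such as those of PDGFRB rest on few molecules. EGFR had no UMI in cells with CALCR at E13. The small number of cells limited this comparison: without E13, E15, E18 or E23 the higher genes numbered 9, 37, 9 and 11, without E13, E18 or E23 the lower genes 15, 16 and 12, and DESeq2 called 9 and 3.

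Split in the same way by MYF5, the cells numbered 115, 108, 204 and 339 with it and 132, 139, 428 and 463 without. Of 8636 genes, 13 were higher (0.151%) and 21 lower (0.243%) with MYF5. MYF6, which neighbours MYF5 in vertebrate genomes and shares its regulatory region, was at 159, 127, 95.6 and 167 CPM against 92.8, 71.9, 50.8 and 90.7 CPM (0.87 ± 0.12, edgeR adjusted p = 0.00025). Also higher were RRAD (1.18 ± 0.20), RGCC (0.83 ± 0.12) and VGLL3, a cofactor known from the muscle lineage (0.41 ± 0.07). Lower were the mesenchymal genes CDH11 (-0.64 ± 0.13), MMP2 (-0.64 ± 0.11), PRRX1 (-0.32 ± 0.06) and DCN (-0.42 ± 0.10), and the gap junction gene GJA1 (-0.59 ± 0.09), at 283, 188, 203 and 229 CPM against 356, 257, 364 and 360 CPM. Without E23 the counts were 1 and 4, and DESeq2 called 0 and 0. By edgeR 311 and 342 of the 8636 genes had an unadjusted p under 0.05. A share of 0.05 of genes without a difference would pass that threshold by chance, so nothing is read from these counts.

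Across stages, levels in PAX7+ MYOD1- cells are described without a test. Of the 6896 genes that averaged 20 CPM or more, 349 (5.06%) rose and 159 (2.31%) fell at each later stage by their point values. How many would do so with stages in random order was not tested, so nothing is read from these counts. The largest rise was that of NEURL1B, a ubiquitin ligase of Notch ligands, at 7.85, 32.4, 45.8 and 161 CPM. FGF10 was at 12.9, 13.5, 45.0 and 158 CPM, a log2 ratio of E23 over E13 of 3.61, with 3.5 in PAX7+ MYOD1+ and 3.43 in cycling PAX7+ cells. CRIP1, a LIM domain protein, was at 42.0, 48.0, 300.0 and 551 CPM, and LTBP2, a microfibril protein, at 20.8, 22.5, 101 and 217 CPM. For FGF10 the intervals of E13 (8.59 to 18.7) and E15 (9.31 to 19.0) overlapped, as did those of CRIP1 and LTBP2. BCAN, TIAM1, SMOX and MGAT4A made up the rest, with log2 ratios of 3.70, 3.19, 3.09 and 3.07.

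Among genes that fell, COL11A1, a fibrillar collagen chain, was at 205, 194, 49.3 and 23.2 CPM, a log2 ratio of -3.14, with -2.28 in PAX7+ MYOD1+ and -2.88 in cycling PAX7+ cells. NREP, a neuronal regeneration related protein, was at 283, 274, 67.9 and 39.7 CPM, AKAP12, a kinase scaffold, at 175, 165, 42.5 and 33.3 CPM, and PMP22, a membrane protein of growth arrest and of myelin, at 115, 83.6, 52.2 and 18.6 CPM. For COL11A1, NREP and AKAP12 most of the fall lay between E15 and E18. The intervals of E13 and E15 overlapped in each of these genes. SPEG, MAP1LC3C, LOC106043950 and LOC106039641 fell as well, with log2 ratios of -2.59, -1.99, -2.68 and -2.21. Each of these 16 rising and falling genes went the same way in PAX7+ MYOD1+ and in cycling PAX7+ cells, although for LOC106039641 the log2 ratio in cycling cells was only -0.13. HEY1 was highest at E15 and fell to 128 CPM at E23, while HES1 was at 37.4, 88.9, 97.0 and 27.5 CPM, with a log2 ratio of E23 over E13 of -0.45 against 0.68 in PAX7+ MYOD1+ and -0.60 in cycling PAX7+ cells.

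**Figure D5:**
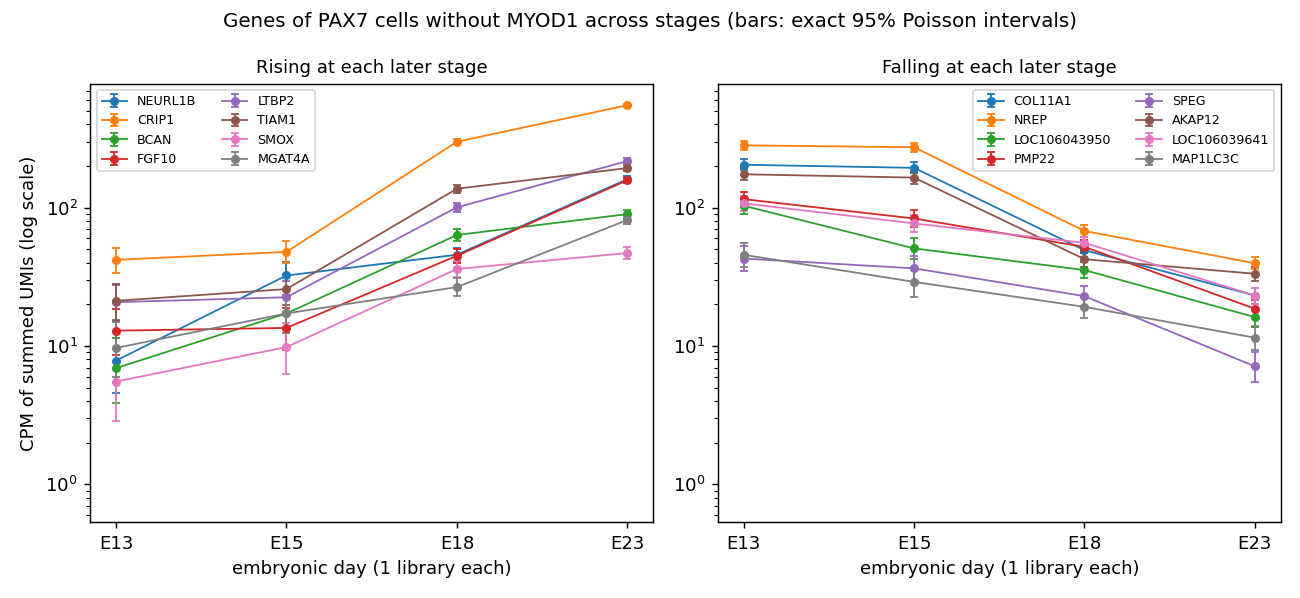
Summed level (CPM, log scale) in PAX7+ MYOD1- cells at each embryonic day for the 8 genes with the largest rise (left) and the largest fall (right) among genes that moved the same way at each later stage, with exact 95% Poisson intervals. NEURL1B rises from 7.85 to 161 CPM, and COL11A1 falls from 205 to 23.2 CPM with most of the fall between E15 and E18.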

How the data were processed

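The authors counted reads with Cell Ranger 7.1.0 (STAR alignment) according to their processing notes, while the header of the deposited files names 9.0.0. The deposited matrices hold raw UMI counts per gene and called barcode, which the authors had not normalized. The genes of the files all match RefSeq symbols of a goose assembly other than that of the study, so no coordinates or sequences are given.

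Counts were summed per library and group of cells and tested with edgeR 4.0.16 (quasi-likelihood, TMM, filterByExpr, library as a block, Benjamini-Hochberg over all tested genes) in R 4.3.3, and again with DESeq2 1.42.0. The 10 genes of the rule were left out. The block was used because both groups of a library were drawn from 1 pool of embryos: deviations of both groups of a library correlated at 0.60 to 0.88 in the 3 main comparisons and at 0.47 to 0.84 in the splits. Cells were thinned with the random seed 1 in numpy 2.4.6 under Python 3.11.15. Doublets were kept, and leaving out the highest scrublet scores (scanpy 1.11.5, 0.8% per 1000 barcodes) was an alternative. 54 of the 2102 cells were among those scores. The lists held 357 genes, of which 331 are in the files.

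Named genes are the list genes and, for each comparison, the 10 largest log2 fold changes in each direction with adjusted p under 0.05, at least 20 CPM in the higher group and 1 direction in all 4 libraries, by stage the 8 largest. Members and lists were chosen with earlier results of these data known. Stages were not tested, since each has 1 library. Some genes counted in the lists are not reported here by name.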

Additional observations from a re-analysis of the deposited data

Results flagged for a closer look

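In 3 genes the difference between groups of PAX7 cells pointed opposite ways in different libraries. With 1 library at each stage, this difference between stages was not tested. HES1, a Notch target, had a log2 ratio of PAX7+ MYOD1- over PAX7+ MYOD1+ cells of 0.77 at E13 and 0.39 at E15, and of -0.24 at E18 and -0.35 at E23. NOTCH1 had ratios of -0.36 (E13), 0.23 (E15), -0.26 (E18) and -0.60 (E23) in the same comparison. COL4A5, a collagen IV chain, had a log2 ratio of PAX7+ MYOD1- over cycling PAX7+ cells of -0.96 (E13), 0.47 (E15), 1.34 (E18) and 0.87 (E23).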

How the results depend on the processing

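Counts of genes depended most on the block. Without the replicate block, 0 genes were higher and 1 lower against PAX7+ MYOD1+ cells (230 and 349 with it), 1 and 167 against cycling PAX7+ cells, 5 and 239 against all other cells, and 0 in each direction in the CALCR and MYF5 splits. Leaving out each library in turn gave 89 to 221 higher and 173 to 360 lower genes against PAX7+ MYOD1+ cells, 424 to 1004 and 519 to 938 against cycling PAX7+ cells, 275 to 716 and 743 to 1223 against all other cells, 9 to 37 and 12 to 36 for CALCR, and 1 to 15 and 4 to 18 for MYF5. DESeq2 called 672 higher genes against cycling cells and 1109 against all others, 9 and 3 for CALCR, and 0 and 0 for MYF5. With no filter on low counts there were 532 and 727 genes against PAX7+ MYOD1+ cells, 117 lower for CALCR, and 26 and 42 for MYF5. Without TMM, 28 genes were higher with CALCR. The cause of these changes was not tested.

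The share of barcodes at E13, E15, E18 and E23 was 3.18%, 3.21%, 7.77% and 10.8% with PAX7 at 1 or more UMIs, 0.932%, 2.23%, 4.46% and 6.10% at 3 or more, 2.92%, 4.47%, 8.24% and 10.9% with up to 1 UMI of MYOD1, and 1.12%, 2.08%, 4.09% and 5.31% with no division gene. Thinning first gave 1.88% at E13, 3.57% at E15 and 8.84% at E23, and leaving out the highest scrublet scores 6.50% at E18.

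Directions turned for HES1 against PAX7+ MYOD1+ cells (-0.072 without E13 to 0.20 without E18 over libraries left out, with -0.041 without E15, -0.14 thinned, -0.041 with no division gene) and against all other cells (-0.060 without stromal barcodes). MYF5 turned to -0.11 against other PAX7 barcodes alone, and its log2 ratio of E23 over E13 to -0.11 with TMM factors. That of HES1 turned to 0.0013 in thinned cells. With cycling cells of any MYOD1 as the comparison, the log2 fold change turned for CALCR (-0.62), MEGF10 (-0.64), MYPN (-0.56), TNNT2 (-0.41), ACTC1 (-0.36), TNNC2 (-0.31), COL15A1 (-0.20), NCAM1 (-0.13), EYA1 (-0.12), TCF12 (-0.11), ITGA7 (-0.086), MYF5 (-0.079), LOC136787070 (-0.051), TNNT3 (-0.034), LAMA2 (-0.026) and CCND3 (0.083). DKK2 turned against cycling cells to 0.27 without the highest scrublet scores and to 1.12 without stromal barcodes, and PDGFRA to 0.050 without those scores. Of 958 values of 69 named genes against PAX7+ MYOD1+ cells, 805 kept direction and side of the threshold, 142 lost the call, 7 gained it and 4 turned.

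The 4 pooled libraries limit all tests. Genes under about 20 CPM rest on few molecules, and in the CALCR split higher levels do so too. A UMI of MYOD1 can be missed, so PAX7+ MYOD1- cells include cells with undetected MYOD1. MYOD1 was also detected in immune and stromal cells, so the rule can leave out PAX7 cells that do not make it.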
